A study of Mus musculus with 6 samples.

Results

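Metallothioneins are small, cysteine-rich proteins that bind zinc and copper. The 3 metallothionein genes of the deposited table, *Mt1*, *Mt2* and *Mt3*, were taken by their gene symbols, and they are 3 of the 21461 genes measured in the hypothalamic arcuate nucleus (ARC). The tissue came from male C57BL/6 mice, 10 weeks old, and was taken 24 h after they were injected i.p. The mice received dexamethasone (Dex, a synthetic agonist of the glucocorticoid receptor, GR) at 10 mg/kg together with Zj7, a naturally derived steroidal compound, at 50 mg/kg (Dex+Zj7), Dex alone at 10 mg/kg, or vehicle. The sample labels give only the 10 mg/kg for the Dex+Zj7 group, and the dose of Zj7 was taken from the study's methods. The vehicle mice are labelled as fed. Each group has 2 libraries, and no source says that these came from separate mice, so the p-values reflect only how far these libraries differ, which may be technical. None of the libraries analysed here came from mice given Zj7 alone.

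Metallothioneins hold their metal in clusters of cysteine thiolates, buffer free zinc and react with oxidants. *Mt1* and *Mt2* are inducible genes: the zinc sensor MTF-1 acts on them through metal response elements (MREs), and glucocorticoids and cytokines raise them in many tissues. In the brain their products are best known from astrocytes. *Mt3* encodes the growth inhibitory factor of the brain, is found in neurons and astrocytes, and is known to respond little to metals or glucocorticoids.

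The genes lie side by side on the plus strand of chromosome 8. In RefSeq coordinates (GRCm38.p6, the assembly of mm10) *Mt3* spans chr8:94152607-94154148, *Mt2* spans chr8:94172618-94173567 and *Mt1* spans chr8:94178883-94180327. *Mt4*, which the gene table places beside them, was not analysed here. The coding sequences of the GENCODE M21 transcripts of the 3 genes are shown because they carry the feature that makes a metallothionein. The letters in capitals are the cysteine codons (TGC and TGT), read in frame from the start codon, and each sequence runs 5′ to 3′.
*Mt1*: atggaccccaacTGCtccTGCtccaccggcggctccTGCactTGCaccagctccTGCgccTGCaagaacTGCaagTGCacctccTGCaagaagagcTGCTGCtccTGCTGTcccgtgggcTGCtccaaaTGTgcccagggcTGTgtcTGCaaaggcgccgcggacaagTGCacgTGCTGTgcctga
*Mt2*: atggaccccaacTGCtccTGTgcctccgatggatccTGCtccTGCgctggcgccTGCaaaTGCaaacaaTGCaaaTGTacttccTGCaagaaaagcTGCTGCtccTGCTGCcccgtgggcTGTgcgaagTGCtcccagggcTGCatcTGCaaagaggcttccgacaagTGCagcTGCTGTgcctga
*Mt3*: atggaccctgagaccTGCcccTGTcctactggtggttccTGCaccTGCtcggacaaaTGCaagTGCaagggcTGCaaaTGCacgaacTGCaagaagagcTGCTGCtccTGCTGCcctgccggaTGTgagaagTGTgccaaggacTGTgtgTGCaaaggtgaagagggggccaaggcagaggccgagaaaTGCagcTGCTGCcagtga
Each of the 3 genes has 20 cysteine codons, of which 16 are TGC and 4 are TGT. They make up 32.8% of the 61 codons of *Mt1* and of *Mt2*, and 29.4% of the 68 codons of *Mt3*. All 3 transcripts have 3 exons. The aligned coding sequences of *Mt1* and *Mt2* were identical at 79.6% of 186 positions. *Mt3* shared 66.2% of 207 aligned positions with *Mt1* and 67.6% with *Mt2*. The longest run of identical bases between any pair of the 3 transcripts was 27 bases, between *Mt1* and *Mt3*, and it was 20 bases between *Mt1* and *Mt2*. No source used here gives how the authors counted reads that match more than 1 gene. GENCODE also places an antisense gene on the minus strand over *Mt2*. The libraries were made with a stranded kit, but whether the counting used the strand is not given either, so reads of that gene and of *Mt2* cannot be told apart with certainty.

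The promoter windows are shown because the 3 genes differ in the motifs they hold. Each window is the RefSeq sequence of GRCm38.p6 from 250 bases before to 50 bases after an annotated start, with matches to the MRE cores TGCACNC and TGCGCNC on either strand in capitals. They cover chr8:94178839-94179138 for *Mt1*, chr8:94172368-94172667 for *Mt2* and chr8:94152357-94152656 for *Mt3*, all on the plus strand. The start used for the *Mt1* window, at base 94179089, lies inside the gene span given above, and those of *Mt2* and *Mt3* are the first base of their spans.
*Mt1* promoter: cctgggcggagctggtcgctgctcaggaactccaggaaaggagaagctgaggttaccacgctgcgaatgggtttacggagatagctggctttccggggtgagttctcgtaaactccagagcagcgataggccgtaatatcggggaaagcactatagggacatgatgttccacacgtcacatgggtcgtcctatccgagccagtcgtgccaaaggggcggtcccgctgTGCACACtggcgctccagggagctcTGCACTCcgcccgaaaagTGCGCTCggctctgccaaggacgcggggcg
*Mt2* promoter: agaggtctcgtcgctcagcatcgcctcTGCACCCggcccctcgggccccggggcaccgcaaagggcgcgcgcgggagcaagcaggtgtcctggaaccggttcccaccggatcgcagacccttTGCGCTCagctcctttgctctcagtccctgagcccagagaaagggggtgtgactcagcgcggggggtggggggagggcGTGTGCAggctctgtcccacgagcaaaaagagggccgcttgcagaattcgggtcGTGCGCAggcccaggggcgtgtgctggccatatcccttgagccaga
*Mt3* promoter: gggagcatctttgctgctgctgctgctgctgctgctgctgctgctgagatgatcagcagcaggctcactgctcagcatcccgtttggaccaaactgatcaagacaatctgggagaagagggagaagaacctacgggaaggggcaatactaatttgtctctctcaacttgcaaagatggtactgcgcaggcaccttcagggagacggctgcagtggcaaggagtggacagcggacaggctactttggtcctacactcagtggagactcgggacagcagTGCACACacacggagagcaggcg
The *Mt2* window held 4 MRE cores, the *Mt1* window 3 and the *Mt3* window 1. At least 1 such core was found in 25.7% of 32851 mouse promoter windows of the same length, at least 3 in 1.97% and at least 4 in 0.517%. A palindromic glucocorticoid response element (GRE) (GNACA and TGTNC with any 3 bases between them, which reads the same on both strands) matched once in the *Mt1* window, as GGACATGATGTTC at position −94 from the annotated start. That motif was in 0.475% of all windows, and neither the *Mt2* nor the *Mt3* window had a match. The element that the study tested as *MT1*-GRE has other letters and does not occur in these windows. The antioxidant element core TGACNNNGC matched once, in the *Mt2* window, and is in 12.4% of all windows. The Sp1 box GGGCGG had 3 matches in the *Mt1* window, 1 of which shares 1 base with an MRE core, and 0 in the other windows, against 35.7% of all windows with a match. The half-site TGTTCT and the TATA box TATAAA had no match in any of the 3 windows. In the transcripts TATAAA begins 129 bases from the annotated 5′ end in *Mt1*, 90 in *Mt2* and 107 in *Mt3*, so the windows lie upstream of that box. A match describes the letters of these windows only, and the numbers are not those of the whole promoter. Bases between each window and the coding sequence were searched for TATAAA only. Elements farther from the genes were not examined.

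Depth was 50704789 to 61122938 counts per library. The members were counted 3597 to 11337 times per library, which gives a counting error of 0.939% to 1.67%, and for most values the libraries of 1 group lay farther apart than this. The 10 markers of arcuate neurons listed were all measured. The library of the second vehicle replicate stood apart in *Pomc*, the precursor of melanocortin peptides, with 131 CPM against 28.0 CPM in the other vehicle library and 21.2 to 29.5 CPM in the 4 libraries that received Dex. Results of the members without that library are given beside them. Levels are in CPM, counts scaled to library size with TMM factors. Changes are log2 fold changes from edgeR's quasi-likelihood test with Benjamini-Hochberg adjustment over all 21461 genes, and a change was called at an adjusted p under 0.05. Where edgeR alone is named beside an adjusted p, it is from this test.

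Dex raised *Mt1* and *Mt2* by similar amounts, and *Mt3* did not pass the test. *Mt1*, which encodes the inducible metallothionein 1, had 187 and 206 CPM in Dex libraries, against 104 and 106 CPM in vehicle libraries. Both Dex libraries were above both vehicle libraries, and the gap between the groups was larger than the difference within either. The change was 0.90 ± 0.07 (log2, SE), or 1.87-fold with a 95% interval of 1.68 to 2.08, at an edgeR adjusted p of 3.99e-04. This p ranked 22 among all genes. *Mt2*, whose product is the other widely induced metallothionein, had 122 and 115 CPM in Dex libraries, against 65.4 and 66.4 CPM in vehicle libraries. Its groups did not overlap either. The change was 0.85 ± 0.07 (log2, SE), or 1.80-fold with an interval of 1.60 to 2.02, at an edgeR adjusted p of 7.09e-04, ranked 43. Among all genes 11.5% were called in this comparison, 5.03% higher and 6.45% lower, and 27.8% had an unadjusted p under 0.05. The groups did not overlap for 27.4% of genes with Dex higher and for 28.5% with Dex lower. Without the second vehicle library *Mt1* was at 0.92 (edgeR adjusted p = 0.00578) and *Mt2* at 0.86 (edgeR adjusted p = 0.00840).

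*Mt3* had 89.4 and 111 CPM in Dex libraries, against 86.2 and 101 CPM in vehicle libraries. The ranges of the 2 groups overlap, and the 2 libraries of a group lay as far apart as 1.24-fold. The change was 0.10 ± 0.13 (log2, SE) with an interval of −0.19 to 0.40 and an edgeR adjusted p of 0.673. The interval thus reaches up to 1.32-fold, below the lower bounds for *Mt1* and *Mt2*. Its sign turned when the second Dex library (−0.07) or the first vehicle library (−0.01) was left out, so no direction is given for *Mt3*. Without the second vehicle library it was at 0.22 (edgeR adjusted p = 0.527).

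**Figure D1:**
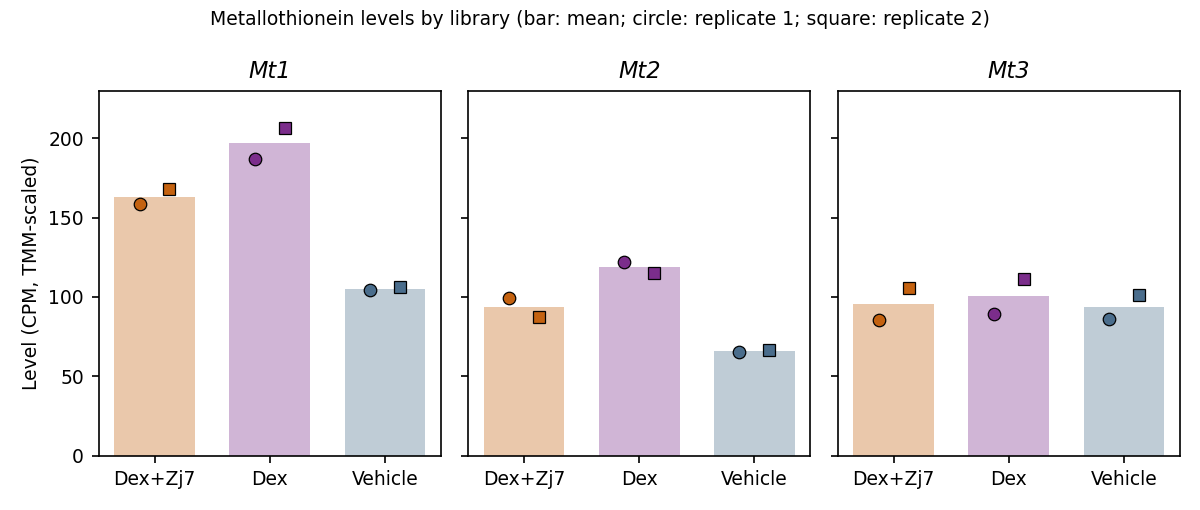
Levels of *Mt1*, *Mt2* and *Mt3* in CPM after TMM scaling, with a panel for each gene, a point for each library (circle for replicate 1, square for replicate 2) and a bar for the mean of the 2 libraries of Dex+Zj7, Dex and vehicle. For *Mt1* and *Mt2* the Dex points are the highest, the vehicle points the lowest and the Dex+Zj7 points lie between, without overlap. The *Mt3* points of the 3 groups overlap and together span 85.7 to 111 CPM.

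With Zj7 added to Dex, *Mt1* and *Mt2* lay between the levels of the Dex and the vehicle groups. *Mt1* had 158 and 168 CPM in Dex+Zj7 libraries, against 187 and 206 CPM in Dex libraries. The difference was −0.27 ± 0.07 (log2, SE), 0.829-fold with a 95% interval of 0.747 to 0.919, and it was not called (edgeR adjusted p = 0.636, p rank 93 of all genes). *Mt2* had 99.5 and 87.6 CPM in Dex+Zj7 libraries, against 122 and 115 CPM in Dex libraries. Its difference was −0.34 ± 0.07 (log2, SE), 0.789-fold with an interval of 0.705 to 0.883, and was not called either (edgeR adjusted p = 0.484, p rank 49). For both genes the Dex+Zj7 libraries were all below the Dex libraries, as they were for 14.9% of all genes. *Mt3* had 85.7 and 106 CPM in Dex+Zj7 libraries, against 89.4 and 111 CPM in Dex libraries, and its groups overlap. Its difference was −0.07 ± 0.13 (log2, SE) with an interval of −0.36 to 0.23 and an edgeR adjusted p of 0.999, and its sign turned without the second Dex library (0.10) or the first Dex+Zj7 library (0.07).

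By edgeR's quasi-likelihood test 0 of the 3 members were thus called for Dex+Zj7 against Dex, where 1 gene of the table (0.00466%) was. At an unadjusted p under 0.05 there were 2 members, *Mt1* and *Mt2*, against 5.24% of all genes. Other tools differed on *Mt2*: DESeq2 gave −0.35 (adjusted p = 0.0142) and edgeR's exact test −0.34 (adjusted p = 0.0124), while limma-voom gave −0.34 (adjusted p = 0.507). *Mt1* was not called by DESeq2 (adjusted p = 0.0856), by edgeR's exact test (adjusted p = 0.0663) or by limma-voom (adjusted p = 0.652). DESeq2 called 60 genes of the table in this comparison and edgeR's exact test called 96.

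Against vehicle, the Dex+Zj7 group had higher levels of both inducible genes. *Mt1* had 158 and 168 CPM in Dex+Zj7 libraries, against 104 and 106 CPM in vehicle libraries. It was higher by 0.63 ± 0.07 (log2, SE), or 1.55-fold with an interval of 1.40 to 1.72, at an edgeR adjusted p of 0.00216. *Mt2* had 99.5 and 87.6 CPM in Dex+Zj7 libraries, against 65.4 and 66.4 CPM in vehicle libraries. It was higher by 0.50 ± 0.07 (log2, SE), or 1.42-fold with an interval of 1.27 to 1.59, at an edgeR adjusted p of 0.00711. In this comparison 7.38% of all genes were called, 3.4% higher and 3.97% lower, and 25.1% had an unadjusted p under 0.05. Dex+Zj7 libraries were all above the vehicle libraries for 29.4% of genes and all below them for 28.7%. The call of *Mt2* was lost without the first vehicle library (0.48, edgeR adjusted p = 0.0605) and without the second (0.51, edgeR adjusted p = 0.0514). *Mt1* without the second vehicle library was at 0.64 (edgeR adjusted p = 0.0238). *Mt3* was at 0.03 ± 0.13 (log2, SE) with an interval of −0.26 to 0.33 and an edgeR adjusted p of 0.916, and its groups overlap. Without the second vehicle library *Mt3* was at 0.14 (edgeR adjusted p = 0.733), and its sign turned without the second Dex+Zj7 library (−0.13) or the first vehicle library (−0.09). The 3 comparisons share libraries, so their values are not independent of each other.

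**Figure D2:**
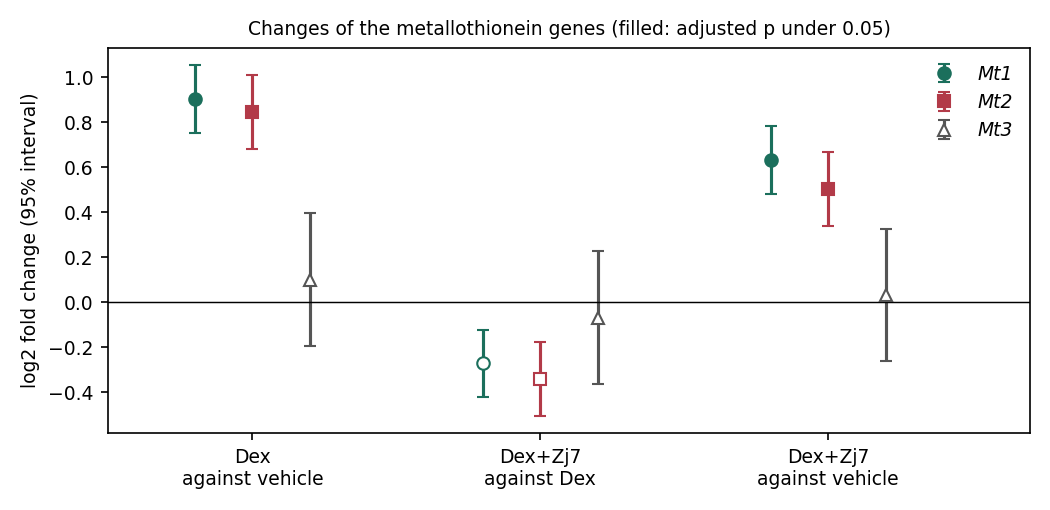
Log2 fold changes of *Mt1* (circles), *Mt2* (squares) and *Mt3* (triangles) in the 3 comparisons, with 95% intervals and filled symbols for an adjusted p under 0.05. *Mt1* and *Mt2* lie near 0.90 and 0.85 for Dex against vehicle, below 0 with open symbols for Dex+Zj7 against Dex, and at 0.63 and 0.50 for Dex+Zj7 against vehicle, while each interval of *Mt3* includes 0.

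Levels of the 3 genes were set beside each other per length, in the FPKM the authors deposited. In Dex+Zj7 libraries *Mt1* averaged 249 ± 0.636 FPKM, *Mt3* 162 ± 23.7 FPKM and *Mt2* 154 ± 14.0 FPKM (SD, n = 2 each). *Mt1* stood above the others there, and the ranges of *Mt3* and *Mt2* overlap. In Dex libraries *Mt1* averaged 304 ± 32.4 FPKM, *Mt2* 195 ± 8.63 FPKM and *Mt3* 170 ± 25.4 FPKM (SD, n = 2 each). The lower *Mt2* library (188.6 FPKM) was just above the higher *Mt3* library (188.1 FPKM), so those neighbours are hardly apart. In vehicle libraries *Mt1* averaged 166 ± 3.99 FPKM, *Mt3* 161 ± 17.3 FPKM and *Mt2* 110 ± 0.652 FPKM (SD, n = 2 each). *Mt1* and *Mt3* overlap in vehicle, and *Mt2* was the lowest of the 3. By its mean FPKM *Mt1* ranked 124 in Dex+Zj7, 86 in Dex and 214 in vehicle among the 21461 genes. *Mt2* ranked 268, 190 and 402 in the same groups, and *Mt3* ranked 248, 226 and 227, so all 3 were in the top 1.87% of genes by this measure.

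The sum of *Mt1* and *Mt2* was 258 and 255 CPM in Dex+Zj7 libraries, 309 and 322 CPM in Dex libraries, and 170 and 172 CPM in vehicle libraries. Between the Dex+Zj7 libraries the sum differed by less than either gene did: *Mt1* was higher in the second library and *Mt2* in the first. Together the 3 genes took 0.0339% and 0.036% of all counts in Dex+Zj7 libraries, 0.0398% and 0.0428% in Dex libraries, and 0.0259% and 0.0277% in vehicle libraries. *Mt3* made up 25.0% and 29.3% of the counts of the 3 genes in Dex+Zj7 libraries, 22.4% and 25.7% in Dex libraries, and 33.7% and 36.9% in vehicle libraries. Its share was thus highest in both vehicle libraries, while its own level overlapped between the groups.

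Ratios between members within a library do not depend on how the library is scaled, and show whether the genes changed unequally. The count of *Mt1* was 1.85 and 1.59 times that of *Mt3* in Dex+Zj7 libraries, 2.09 and 1.86 times in Dex libraries, and 1.21 and 1.05 times in vehicle libraries. The log2 ratio of *Mt1* to *Mt3* was 0.81 higher in Dex than in vehicle and 0.60 higher in Dex+Zj7 than in vehicle, with no overlap of libraries. It was lower by a log2 difference of −0.20 in Dex+Zj7 than in Dex, again with no overlap. The ratio of *Mt2* to *Mt3* was 1.16 and 0.829 in Dex+Zj7 libraries, 1.36 and 1.04 in Dex libraries, and 0.759 and 0.658 in vehicle libraries. This ratio was 0.75 higher (log2) in Dex than in vehicle and 0.47 higher in Dex+Zj7 than in vehicle. With 2 libraries against 2 the smallest p that an exact two-sided permutation test can give is 0.333, which the ratio comparisons without overlap had, so none of the 9 made can pass 0.05. The ratio of *Mt2* to *Mt3* for Dex+Zj7 against Dex overlapped (−0.28, p = 0.667 from the exact permutation test).

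The ratio of *Mt1* to *Mt2* overlapped between the groups, unlike the ratios to *Mt3* of the treated and vehicle libraries. The count of *Mt1* was 1.59 and 1.92 times that of *Mt2* in Dex+Zj7 libraries, 1.53 and 1.79 times in Dex libraries, and 1.60 and 1.60 times in vehicle libraries. The log2 differences of this ratio were 0.06 for Dex against vehicle (p = 1), 0.07 for Dex+Zj7 against Dex (p = 0.667) and 0.13 for Dex+Zj7 against vehicle (p = 1), all from the exact permutation test, and the sign of each turned when a library was left out. The 2 libraries of a group lay farther apart in this ratio in Dex+Zj7 and in Dex than in vehicle. With 2 libraries a group this is a description and cannot show a difference in spread.

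**Figure D3:**
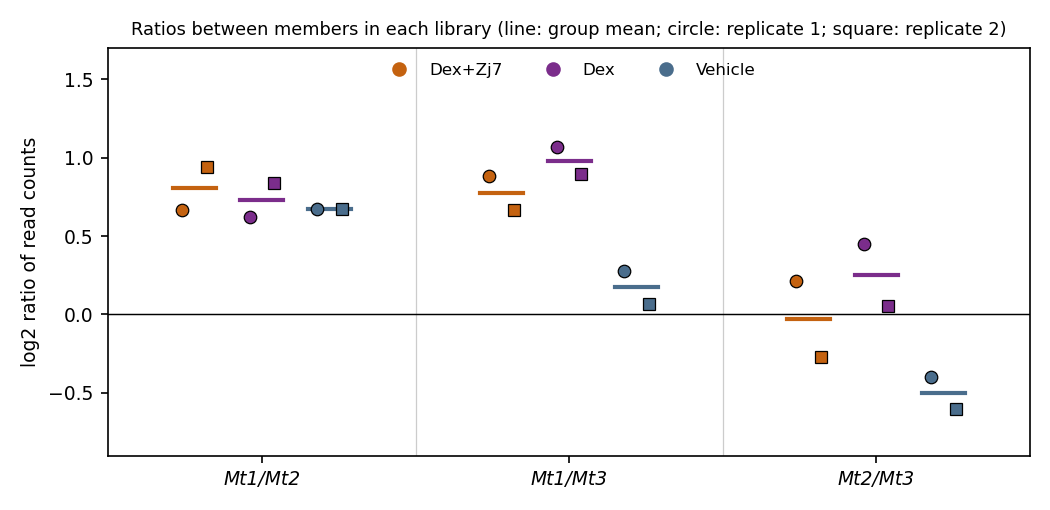
Log2 ratios of the read counts of *Mt1* to *Mt2*, *Mt1* to *Mt3* and *Mt2* to *Mt3* in each library (circle for replicate 1, square for replicate 2), with a line at the mean of Dex+Zj7, Dex and vehicle. The ratios to *Mt3* are lowest in both vehicle libraries, whereas the ratio of *Mt1* to *Mt2* overlaps between the groups, with vehicle at 0.67 in both libraries.

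The genes of zinc transport form short lists, so a low number of calls among them is not read as a result. For Dex against vehicle 11.5% of all genes were called and 27.8% had an unadjusted p under 0.05. For Dex+Zj7 against vehicle these shares were 7.38% and 25.1%. Of the 8 measured zinc exporters of the ZnT family, 0 were called in any comparison, whether by edgeR's quasi-likelihood test, by its exact test, by DESeq2 or by limma-voom. At an unadjusted p under 0.05 there was 1 for Dex against vehicle (*Slc30a9*, 0.17), and 0 in either comparison of Dex+Zj7. *Slc30a1*, the exporter of the plasma membrane that MTF-1 is known to control alongside *Mt1* and *Mt2*, had 36.2 and 38.6 CPM in Dex+Zj7 libraries, 43.1 and 36.4 CPM in Dex libraries, and 42.6 and 40.4 CPM in vehicle libraries. With Dex it was at −0.06 (edgeR adjusted p = 0.708), with overlapping groups. *Mtf1* itself was at −0.02 in the comparison of Dex with vehicle, −0.00 in that of Dex+Zj7 with Dex and −0.02 in that of Dex+Zj7 with vehicle, and was not called.

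Of the 13 measured zinc importers of the ZIP family, edgeR's quasi-likelihood test called 1 for Dex against vehicle and 1 for Dex+Zj7 against vehicle. DESeq2 and edgeR's exact test called 2 for Dex against vehicle, and limma-voom called 1. For Dex+Zj7 against vehicle each of these 3 tools called 1. For Dex+Zj7 against Dex 0 were called by any of the 4 tools, and 2 had an unadjusted p under 0.05. *Slc39a10*, an importer that MTF-1 is known to repress, had 94.2 and 99.1 CPM in Dex libraries, against 128 and 128 CPM in vehicle libraries. Dex lowered it, with a log2 change of −0.41 (edgeR adjusted p = 0.00668), and the call was lost without the second vehicle library (edgeR adjusted p = 0.0574). *Slc39a10* was also called lower in Dex+Zj7 against vehicle (−0.31, edgeR adjusted p = 0.0242). That call was lost without either Dex+Zj7 library or either vehicle library. *Slc39a14*, an importer induced with metallothioneins in liver inflammation, had 42.1 and 41.1 CPM in Dex libraries, against 34.7 and 35.7 CPM in vehicle libraries. Its change of 0.24 just missed the threshold (edgeR adjusted p = 0.0501). *Slc39a8*, an importer of zinc and manganese whose gene overlaps a predicted gene, had 5.62 and 5.69 CPM in Dex+Zj7 libraries, 4.64 and 4.28 CPM in Dex libraries, and 6.19 and 5.56 CPM in vehicle libraries. It was lowest in both Dex libraries, with a change of −0.40 in Dex against vehicle (edgeR adjusted p = 0.109). It was not called there, nor in Dex+Zj7 against Dex, where it was at 0.34 (edgeR adjusted p = 0.938). *Slc39a12*, an importer of the brain, was at 0.19 and was not called. The 13 ZIP genes had a median change of 0.04 and the 8 ZnT genes of −0.03, against 0.00286 for all genes.

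Of the 12 copper genes, 0 were called for Dex against vehicle by edgeR's quasi-likelihood test (11.5% of all genes). At an unadjusted p under 0.05 there were 2 (27.8% of all genes). edgeR's exact test called 1 there, and DESeq2 and limma-voom called 0. The 12 genes had a median of 0.07. The 2 genes at an unadjusted p under 0.05 were *Commd1*, a copper-binding regulator of vesicle traffic, at −0.31 (edgeR adjusted p = 0.0826) and *Cp*, the copper-carrying ferroxidase ceruloplasmin, at −0.60 (edgeR adjusted p = 0.175), whose genes overlap *Zrsr1* and *Hps3*. *Atp7b*, a copper exporter, was at 0.33 and *Ccs*, the copper chaperone of superoxide dismutase, at 0.20, without passing. For Dex+Zj7 against vehicle, where 3.97% of all genes were called lower, 1 copper gene was, *Commd1* (−0.41, edgeR adjusted p = 0.0452). That call was lost without either Dex+Zj7 library or either vehicle library.

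Among MTF-1 and its targets, 3 of 6 were called for Dex against vehicle, where 11.5% of all genes were. Of the 3 called, 2 were lower and 1 higher, and the list had a median of −0.04. *Ndrg1*, a stress-response gene, had 90.5 and 94.9 CPM in Dex libraries, against 122 and 135 CPM in vehicle libraries. It fell by 0.47 on the log2 scale (edgeR adjusted p = 0.00651), and the call was lost without the second vehicle library (edgeR adjusted p = 0.0636). *Gclc*, the catalytic subunit of the enzyme that starts glutathione synthesis, was higher by 0.31 (edgeR adjusted p = 0.0263), a call lost without the first Dex library or either vehicle library. *Slc39a10*, counted above among the importers, was the other lower gene, and *Gclc* is counted again among the oxidant response genes.

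The oxidant response genes, among which metallothioneins are often counted, had 2 of 13 higher and 1 lower with Dex, with a median of 0.15. Among all genes 5.03% were called higher and 6.45% lower. *Srxn1*, which repairs oxidised peroxiredoxins, had 126 and 125 CPM in Dex libraries, against 91.2 and 94.8 CPM in vehicle libraries. It rose by 0.43 (edgeR adjusted p = 0.00589), and the call was lost without the first vehicle library (edgeR adjusted p = 0.0529). *Slc7a11*, the cystine importer, had 36.7 and 36.4 CPM in Dex libraries, against 83.8 and 59.7 CPM in vehicle libraries. It fell by 0.97 on the log2 scale (edgeR adjusted p = 0.00472). *Hmox1*, which encodes an inducible haem oxygenase, was at 0.06 and was not called.

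The cytokine route through STAT3, which is known to raise metallothioneins in inflammation, had 10 measured genes. With Dex 3 of them were called lower (6.45% of all genes) and 0 higher (5.03% of all genes), with a median of −0.16. *Il6st*, the shared receptor subunit gp130, changed by −0.45 (edgeR adjusted p = 0.00280), *Osmr*, the oncostatin M receptor, by −1.11 (edgeR adjusted p = 0.0189) and *Cntfr*, the receptor of ciliary neurotrophic factor, by −0.33 on the log2 scale (edgeR adjusted p = 0.0251). The call of *Osmr* was lost without the second Dex library or either vehicle library, and that of *Cntfr* without the first Dex library or either vehicle library. *Lifr* went the other way, at 0.32, and was not called (edgeR adjusted p = 0.0573). *Stat3* was at 0.00 and *Socs3*, a target gene of STAT3 that feeds back on it, at −0.79 without passing (edgeR adjusted p = 0.0988).

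The genes known to be induced by glucocorticoids had the list median nearest to the changes of *Mt1* and *Mt2*. Of 15, 10 were called higher with Dex, against 5.03% of all genes, with a median of 0.75. The list was chosen with earlier results of these data known, so its counts and medians are a description only. *Sgk1*, a kinase whose gene overlaps predicted genes, had 177 and 170 CPM in Dex libraries, against 89.2 and 63.3 CPM in vehicle libraries, and *Fkbp5*, a chaperone of GR, had 127 and 123 CPM in Dex libraries, against 36.0 and 31.4 CPM in vehicle libraries. They rose by 1.19 (edgeR adjusted p = 0.00487) and 1.89 (edgeR adjusted p = 3.26e-04). *Sult1a1*, a sulphotransferase whose gene overlaps others, rose by 1.52 and *Cdkn1a*, the cell cycle inhibitor p21, by 3.15. For Dex+Zj7 against Dex the list had a median of −0.19, 0 of 15 called by any of the 4 tools (both edgeR tests, DESeq2 and limma-voom), 3 at an unadjusted p under 0.05 (5.24% of all genes), and 4 whose Dex+Zj7 libraries were all below the Dex libraries (14.9% of all genes). For Dex+Zj7 against vehicle 8 were called higher, against 3.4% of all genes, with a median of 0.50. *Mt1* and *Mt2* had 0.90 and 0.85, −0.27 and −0.34, and 0.63 and 0.50 in the same comparisons.

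Over the 74 measured genes of the 7 lists, 12 were called higher for Dex against vehicle, and 10 of these were of the glucocorticoid-induced list. The 6 called lower were all of other lists. This makes 18 in all, where 11.5% of all genes were called. The number called was 9 without the second vehicle library. For Dex+Zj7 against Dex 0 were called by any of the 4 tools (both edgeR tests, DESeq2 and limma-voom), and 5 had an unadjusted p under 0.05, where 5.24% of all genes had one. For Dex+Zj7 against vehicle 10 were higher, 8 of them of the glucocorticoid-induced list, and 6 lower, where 7.38% of all genes were called. These 16 became 6 without the first Dex+Zj7 library, 8 without the first vehicle library and 7 without the second.

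**Figure D4:**
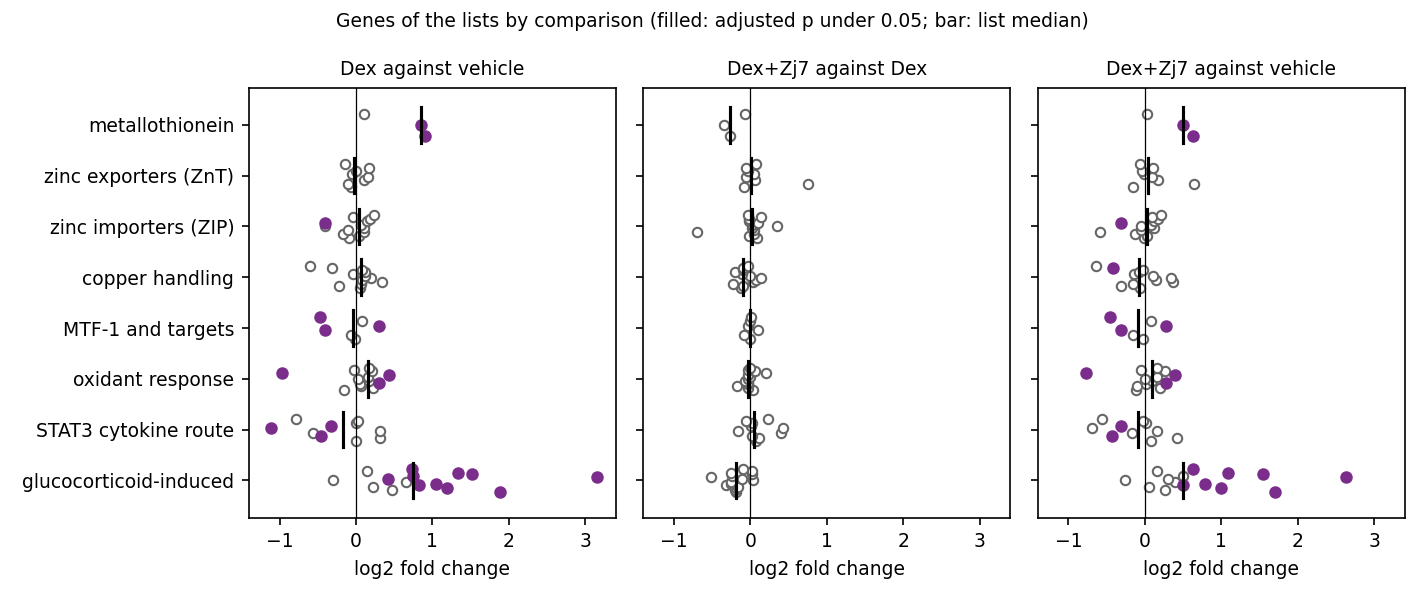
Log2 fold changes of the metallothioneins and of the measured genes of 7 lists in the 3 comparisons, with a point for each gene, filled for an adjusted p under 0.05, and a bar at the list median. In the panel of Dex against vehicle the medians of the metallothioneins (0.85) and of the glucocorticoid-induced genes (0.75) lie to the right, while those of the other lists lie between −0.16 and 0.15.

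Among the genes described that flank the cluster, *Slc12a3* and *Cpne2* were called for Dex against vehicle, in opposite directions. Of all genes 11.5% were called in this comparison and 7.38% for Dex+Zj7 against vehicle, so calls among so few genes are not read as a result. These calls were not followed with a library left out. Before *Mt3*, *Gnao1*, *Nudt21*, *Ogfod1* and *Bbs2* were not called in any comparison by edgeR's quasi-likelihood test. *Bbs2*, a gene of the ciliary BBSome, ends 53238 bases before *Mt3* and was at −0.07 for Dex against vehicle. After *Mt1*, *Nup93*, a gene of the nuclear pore, begins 34237 bases away and was at 0.16 for Dex against vehicle (edgeR adjusted p = 0.102) and higher by 0.27 for Dex+Zj7 against vehicle (edgeR adjusted p = 0.0274). *Slc12a3*, which encodes a sodium chloride cotransporter, was higher in Dex (1.80 and 1.97 CPM) than in vehicle (0.779 and 0.978 CPM), with a change of 1.10 (edgeR adjusted p = 0.0287). It begins 148782 bases after *Mt1*, and was at 0.13 for Dex+Zj7 against Dex and higher by 1.23 for Dex+Zj7 against vehicle (edgeR adjusted p = 0.0264). *Cpne2*, which encodes a copine, fell by 0.32 with Dex (edgeR adjusted p = 0.0257). *Herpud1*, a gene of the endoplasmic reticulum stress response, was at 0.28 (edgeR adjusted p = 0.0502) and *Nlrc5* at 0.37 without being called.

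Pattern likeness was measured as the root mean square difference of log2 CPM, each gene centred on its own mean, over the 6 libraries among 13977 other genes with a mean of at least 1 CPM, predicted genes left out. *Mt1* and *Mt2* differed by 0.11 on this scale (Pearson's r of 0.95 over 6 libraries). *Mt3* differed from *Mt1* by 0.36 (r of 0.35) and from *Mt2* by 0.36 (r of 0.13). The correlations are descriptions over libraries that share groups. The 5 genes nearest to *Mt1* were *Ccdc116*, *Ism1*, *Nptx2*, *Tesc* and *Shisal2a*, at 0.05 to 0.08. *Nptx2*, which encodes a neuronal pentraxin of excitatory synapses, was at 0.75 for Dex against vehicle and −0.22 for Dex+Zj7 against Dex. The 5 nearest to *Mt2* were *Gp5*, *Agfg2*, *Ccdc116*, *Gpr179* and *Rhou*, at 0.05 to 0.09, so *Ccdc116* is near both. The 5 nearest to *Mt3* were *Ephb3*, *Mrpl43*, *Scand1*, *Bola1* and *Atg101*, at 0.02 to 0.04, all with changes of 0.07 to 0.09 for Dex against vehicle. These genes were chosen for the likeness, so their changes are a description.

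Markers of the cells in the tissue moved unequally beside these values, and in bulk tissue fewer cells of a type and less RNA per cell cannot be told apart. Among all genes 5.03% were called higher and 6.45% lower for Dex against vehicle, and 3.4% and 3.97% for Dex+Zj7 against vehicle. An unadjusted p under 0.05 was found for 27.8% and 25.1% of all genes in these comparisons, and for 5.24% in Dex+Zj7 against Dex. Of 10 astrocyte markers, all measured, 1 was called higher and 2 lower with Dex, and the 10 together summed to 3809 to 3990 CPM in Dex+Zj7 libraries, 3894 to 4005 CPM in Dex libraries and 3925 to 4036 CPM in vehicle libraries. The summed level of the astrocyte markers thus overlaps between the groups, but abundant markers weigh most in such a sum. Single markers changed by −0.94 to 0.59 for Dex against vehicle. The Dex libraries were all above the vehicle libraries for 3 of them (27.4% of all genes) and all below for 4 (28.5%). *Gjb6*, the astrocyte connexin 30, was higher by 0.59 (edgeR adjusted p = 0.00219), while *Gja1*, connexin 43, was lower, with a log2 change of −0.39 (edgeR adjusted p = 0.00530). The 8 neuronal markers summed to 5429 to 5539 CPM in Dex+Zj7 libraries, 5454 to 5564 CPM in Dex libraries and 5291 to 5393 CPM in vehicle libraries, and 0 of them were called in any comparison by edgeR's quasi-likelihood test (2, 0 and 2 at an unadjusted p under 0.05). The 8 oligodendrocyte markers summed to 4281 to 4534 CPM in Dex+Zj7 libraries, 4184 to 4197 CPM in Dex libraries and 5161 to 5617 CPM in vehicle libraries. Of these, 6 were called lower for Dex against vehicle (median −0.73) and 6 for Dex+Zj7 against vehicle (median −0.64). The 8 endothelial markers summed to 147 to 185 CPM in Dex+Zj7 libraries, 85.0 to 101 CPM in Dex libraries and 195 to 200 CPM in vehicle libraries, and 7 were called lower with Dex (median −1.08). For Dex+Zj7 against Dex 0 endothelial markers were called, but 8 had an unadjusted p under 0.05 (median 0.84). All 8 were higher there without overlap of libraries, as were 16.4% of all genes. The 8 microglial markers summed to 105 to 111 CPM in Dex+Zj7 libraries, 113 CPM in both Dex libraries and 205 CPM in both vehicle libraries, and 6 were called lower with Dex (median −1.50). The oligodendrocyte, endothelial and microglial sums thus differ between Dex and vehicle libraries without overlap, as *Mt1* and *Mt2* do in the other direction. The 5 red blood cell genes summed to 30.3 to 30.8 CPM in Dex+Zj7 libraries, 44.4 to 75.6 CPM in Dex libraries and 64.0 to 70.1 CPM in vehicle libraries, and 5 were called lower for Dex+Zj7 against vehicle. For Dex+Zj7 against Dex 0 of them were called, but 5 had an unadjusted p under 0.05 (median −0.95). All 5 were lower there without overlap of libraries, as were 14.9% of all genes. Of 8 ependymal and tanycyte markers 2 were called lower with Dex, and of 5 choroid plexus markers 1 was called higher. For Dex+Zj7 against Dex, 3 ependymal and tanycyte, 2 oligodendrocyte and 1 choroid plexus markers had an unadjusted p under 0.05. Of the astrocyte and microglial markers 0 had one there. The part of these cells in the changes of *Mt1* and *Mt2* was not tested.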

How the data were processed

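RNA of dissected ARC tissue was sequenced after poly(A) selection with a stranded kit. The authors cleaned the reads and aligned them to mm10 (Bowtie2 2.3.4.1, HISAT2 2.1.0), then assembled transcripts (StringTie 2.1.3b). The deposited counts are whole reads per gene and library, not normalized, and genes at 0 in any library had been left out. The deposited FPKM values, scaled by the authors to length and mapped reads, served only for levels between genes. Deposited fold changes and p-values, TPM and normalized columns were not used here.

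Counts of all 6 libraries (50704789 to 61122938 each) were fitted together in edgeR 4.0.16 (TMM factors, glmQLFit and glmQLFTest, R 4.3.3) without a further filter. Standard errors were derived as the size of the log2 change over the square root of the F statistic, and intervals are 95%. Log2 CPM for pattern likeness used a prior count of 2 and genes with a mean of at least 1 CPM, without predicted genes (Gm and a number, or ending in Rik) and genes with no symbol. Ratios were tested with an exact permutation test in SciPy 1.17.1. The permutation test was checked on known values, and edgeR's quasi-likelihood test on counts simulated for Dex against vehicle. Alternatives were RLE factors, total counts, a filter at a mean of 1 CPM, DESeq2 1.42.0, edgeR's exact test, limma-voom (limma 3.58.1), only the 2 groups compared, the replicate number as a block, each library left out, and FPKM for the ratios. RefSeq positions matched 21404 of 21461 genes by gene ID, sequences of the 3 genes came from RefSeq (GRCm38.p6) and GENCODE M21 (GRCm38), and alignments from Biopython 1.88. The members and lists were chosen with earlier results of these data known. Genes named are the members, up to 4 genes with the smallest p of each list, the 5 flanking genes on each side (1 is not reported here) and the 5 most alike in pattern. *Slc30a1*, *Mtf1*, *Sgk1*, *Hmox1*, *Stat3*, *Socs3*, *Pomc*, *Gjb6* and *Gja1* were named after their values were seen.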

Additional observations from a re-analysis of the deposited data

How the results depend on the processing

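*Mt1* and *Mt2* kept the direction in all 14 alternatives of each comparison. Leaving out 1 library gave *Mt1* 0.83 to 0.97 and *Mt2* 0.81 to 0.89 for Dex against vehicle, −0.34 to −0.20 and −0.44 to −0.26 for Dex+Zj7 against Dex, and 0.58 to 0.67 and 0.41 to 0.59 for Dex+Zj7 against vehicle. *Mt3* ranged from −0.0659 to 0.25, −0.24 to 0.10 and −0.13 to 0.17. For Dex+Zj7 against Dex, *Mt2* passed with DESeq2 (−0.35) and edgeR's exact test (−0.34). The log2 ratio of *Mt1* to *Mt2* ranged from −0.0557 to 0.17, −0.0605 to 0.21 and −0.0048 to 0.26 when a library was left out. Over the whole table, 2464, 1 and 1583 genes were called, and with a library left out 538 to 2397, 0 to 3 and 311 to 2330. edgeR's exact test called 3716, 96 and 3007, DESeq2 60 for Dex+Zj7 against Dex, and a fit of only the 2 groups 0 there. Of the pathway genes 9 to 21 were called with a library left out for Dex against vehicle and 6 to 18 for Dex+Zj7 against vehicle. The lone library of a group was then assumed to vary like the others.

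Whether the replicate numbers pair the libraries is not settled. Over 15531 genes, deviations of equal numbers from their group means correlated at −0.0115 for Dex+Zj7 with Dex and 0.023 for Dex+Zj7 with vehicle. For Dex with vehicle the correlation was 0.322, so an effect shared by equal numbers of these 2 groups is possible. With the number as a replicate block, 3666, 0 and 2612 genes of the table were called, and *Mt1*, *Mt2* and *Mt3* kept their side of the threshold in every comparison, with *Mt2* at −0.34 (edgeR adjusted p = 0.191) for Dex+Zj7 against Dex.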
